A study of Mus musculus with 6 samples.

Results

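Keratins and vimentin build the intermediate filaments of epithelial and mesenchymal cells. Their transcripts were followed in mouse kidney cells sorted by a reporter of intercalated cells, early after ischemia. The genes described are 9 that were picked by name from the 37583 genes listed in the deposited expression table: the type II keratins Krt5, Krt7, Krt8 and Krt80, the type I keratins Krt18, Krt19, Krt20 and Krt23, and vimentin (Vim). RNA came from 3 samples taken 2 h after renal ischemia-reperfusion injury (IRI), a period without renal blood flow followed by its return, and from 3 samples taken 2 h after sham surgery. All 6 samples came from B1 VATPase EGFP transgenic mice aged 12 weeks, in which EGFP is described as specific to intercalated cells, the acid- and base-secreting cells of the collecting duct. Each sample pooled 4 kidneys of 2 mice, and its EGFP+ cells were purified from the medulla in 2 rounds of sorting. The genotype label, shared by both groups, also puts EGFP under control of CX3CR1, and the tissue label reads epididymis. Cx3cr1 had 1 read in the IRI libraries and 1 in the sham libraries, and of 8 epididymis markers 4 had no read in any library. Defb2 and Cst8 were the 2 epididymis markers with enough reads to be tested, and neither was called. Defb2 averaged 4.79 ± 2.63 CPM (counts scaled to a common library size) in IRI and 8.68 ± 2.98 CPM in sham, and Cst8 averaged 1.18 ± 0.837 CPM in IRI and 1.42 ± 0.780 CPM in sham (SD, n = 3 each). Defb2 was called lower in IRI for library size alone (log2 -1.06, edgeR adjusted p = 0.0499) and without IRI replicate 3 (log2 -1.40, edgeR adjusted p = 0.00762).

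Between 17421669 and 24245330 reads were counted in genes per library. Intercalated cell markers were abundant, with summed levels of 24486 to 30355 CPM in IRI and 25261 to 31538 CPM in sham. Carbonic anhydrase 2 (Car2) alone averaged 9558 ± 1192 CPM in IRI and 9443 ± 987 CPM in sham (SD, n = 3 each). Of the 13 markers, all tested, none was called higher and Atp6v1b1, Rhcg, Hmx2 and Insrr were called lower in IRI. For this and the lists that follow, 24.2% of all genes tested were called higher and 21.2% lower. Markers of principal cells, the neighbouring cells of the collecting duct, were also abundant. They summed to 11980, 6215 and 9245 CPM in IRI replicates 1, 2 and 3, and to 13807, 12384 and 13048 CPM in sham replicates 1, 2 and 3, with Aqp3 and Hsd11b2 called lower in IRI among 9 tested. Thick ascending limb markers summed to 1031 to 1629 CPM in IRI and 1412 to 2289 CPM in sham, with Kcnj1 called lower in IRI among 7 tested. Proximal tubule markers summed to 14.0 to 29.5 CPM in IRI and 11.2 to 21.5 CPM in sham, with Lrp2 called lower in IRI among 5 tested (edgeR adjusted p = 0.0373, but 0.0646 to 0.0914 with IRI replicate 1 or 2 or sham replicate 1 or 3 left out). In bulk RNA of this kind, fewer cells of a type and less RNA per cell cannot be told apart. The principal cell marker Aqp2 averaged 6578 ± 2443 CPM in IRI and 9363 ± 329 CPM in sham (SD, n = 3 each). The levels given below are those of the sorted cells as a whole.

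Keratin filaments assemble from pairs of a type I and a type II protein, so a cell needs both types. Krt8 and Krt18 are the primary pair of simple epithelia such as the kidney tubule, and their proteins shield epithelial cells from mechanical and toxic stress. Krt7 and Krt19 are found in ductal epithelia, including the collecting duct. Vimentin forms filaments on its own and is typical of mesenchymal cells, but also appears in tubule epithelium that is being repaired after injury.

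Of the 9 genes, 7 had enough reads to be tested, and all 7 were higher in IRI: Krt7, Krt8, Krt18, Krt19, Krt23, Krt80 and Vim. In the same test 45.5% of the 13881 genes tested were called in either direction, and 24.2% were called higher. In all 7 genes every IRI sample lay above every sham sample, which was so for 29.2% of all genes tested (56.4% had groups that did not overlap in either direction). The median log2 fold change (IRI over sham) of the 7 tested genes was 3.33, against 0.00038 for all genes tested. Krt5 and Krt20 fell below the filter on low counts and are given as reads. Vim passed that filter only through its IRI reads, so its call is not read as support for the counts above, although they and the median include it. The other 6 genes called were keratins. Among the 7 keratins tested, which are these 6 and Krt10, the median log2 fold change was 2.05. The genes were chosen with earlier results of these data known, so the shares of all genes are given as a description.

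**Figure D1:**
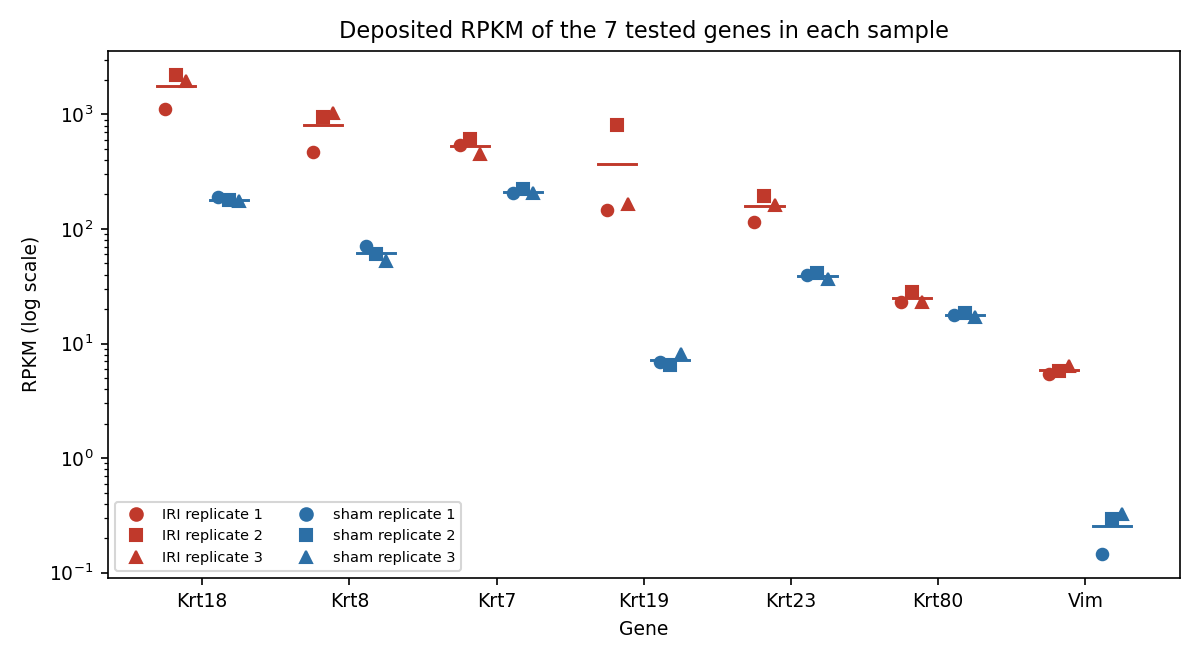
Deposited RPKM (log axis) of the 7 tested genes in each IRI sample and each sham sample, as points, with a bar at the mean of the 3 samples of a group. The 3 IRI points lie above the 3 sham points for each gene, and the Krt19 points of IRI are spread more widely than those of the other genes, with replicate 2 at 804 RPKM.

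The sequences around the starts of Krt8, Krt18 and Vim are shown because the first pair lie side by side on chromosome 15 and encode filament partners that were both higher, while Vim was the non-keratin gene of the set. Each runs 5′ to 3′ on the strand of its gene, from 250 bases before to 50 bases after the listed start, as given by RefSeq for GRCm38.p6. The windows are chr15:102004293-102004592 (minus strand) for Krt8, chr15:102027966-102028265 (plus strand) for Krt18 and chr2:13574061-13574360 (plus strand) for Vim. Capitals mark the motif TATAAA.

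Krt8: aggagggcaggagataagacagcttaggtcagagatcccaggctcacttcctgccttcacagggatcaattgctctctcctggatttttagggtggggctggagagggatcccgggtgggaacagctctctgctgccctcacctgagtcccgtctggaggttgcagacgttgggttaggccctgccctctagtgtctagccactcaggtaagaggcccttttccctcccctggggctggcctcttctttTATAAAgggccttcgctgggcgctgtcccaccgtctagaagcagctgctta

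Krt18: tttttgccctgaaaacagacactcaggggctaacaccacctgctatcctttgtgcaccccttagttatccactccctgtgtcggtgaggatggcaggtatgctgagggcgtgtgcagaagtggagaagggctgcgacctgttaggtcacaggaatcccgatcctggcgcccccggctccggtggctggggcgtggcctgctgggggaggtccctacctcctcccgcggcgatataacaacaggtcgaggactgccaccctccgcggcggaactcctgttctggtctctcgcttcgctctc

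Vim: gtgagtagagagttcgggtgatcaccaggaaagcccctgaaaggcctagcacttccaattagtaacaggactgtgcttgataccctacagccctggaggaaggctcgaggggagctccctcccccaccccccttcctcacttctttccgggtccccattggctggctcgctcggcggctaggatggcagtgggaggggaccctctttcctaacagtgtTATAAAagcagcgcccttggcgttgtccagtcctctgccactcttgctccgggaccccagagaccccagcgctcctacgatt

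The motif TATAAA, the core of a TATA box, was searched on the gene's strand. Counting the listed start as 0, it began at -32 in Vim and at -29 in Krt20, before the start. In Krt8 it began at -1 and so spans the listed start itself, unlike in Vim and Krt20. It was not found in the windows of Krt18, Krt7, Krt23 or Krt5. Of all 32851 promoter windows of this length, 8.32% held it. TGANTCA, the motif of the AP-1 transcription factors, was searched on both strands and was in none of the windows of these 7 genes, against 7.81% of all windows. No window was listed under the symbols Krt19 and Krt80, so neither gene was searched.

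The primary pair was strongly higher in IRI. Levels per length are given as RPKM, reads scaled to gene length in kilobases and to library size. Krt18 (ENSMUSG00000023043), a type I keratin, stood at 1112, 2220.1 and 1975 RPKM in IRI replicates 1, 2 and 3, against 189, 178 and 176 RPKM in sham replicates 1, 2 and 3. IRI replicate 1 was the lowest of its group and was still 6.24 times the sham mean by CPM. The level averaged 1769 ± 582 RPKM in IRI and 181 ± 7.16 RPKM in sham (SD, n = 3 each), a 10.1-fold difference with a log2 fold change of 3.33 ± 0.26 (SE; edgeR quasi-likelihood test with Benjamini-Hochberg adjustment, adjusted p = 5.94e-05). Ranked by RPKM within each library, Krt18 was at places 25 to 46 of all genes in IRI and at places 353 to 414 in sham.

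Krt8 (ENSMUSG00000049382), its type II partner, stood at 469.9, 941 and 1033 RPKM in IRI replicates 1, 2 and 3, against 71.2, 61.0 and 52.2 RPKM in sham replicates 1, 2 and 3. As for Krt18, IRI replicate 1 was the lowest IRI sample and the groups did not overlap. Krt8 averaged 815 ± 302 RPKM in IRI and 61.5 ± 9.51 RPKM in sham (SD, n = 3 each) and was 13.6-fold higher (log2 3.77 ± 0.32, edgeR adjusted p = 0.000138). GENCODE M21 lists a processed pseudogene of Krt8, and reads that match both copies would not be counted as unique, so the level of Krt8 carries that uncertainty.

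Whether the partners kept their proportion was asked with the ratio of Krt8 to Krt18, which does not depend on library scaling. The ratio of RPKM was 0.423, 0.424 and 0.523 in IRI replicates 1, 2 and 3, against 0.377, 0.343 and 0.297 in sham replicates 1, 2 and 3. Every IRI ratio was above every sham ratio, with a difference of means of 0.43 on the log2 scale. The exact two-sided permutation test gave p = 0.1, the smallest value that 3 against 3 samples allow, so the threshold of 0.05 was out of reach.

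The ductal keratins differed in how far they moved. Krt7 (ENSMUSG00000023039), a type II keratin, had 540.2, 604 and 451 RPKM in IRI replicates 1, 2 and 3, against 207, 224 and 206 RPKM in sham replicates 1, 2 and 3. The groups did not overlap, and the difference was 2.57-fold (log2 1.36 ± 0.14, edgeR adjusted p = 0.0001). By reads Krt7 was the most abundant of the 9 genes in each library, at 3860 ± 558 CPM in IRI and 1502 ± 66.1 CPM in sham (SD, n = 3 each).

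Krt19 (ENSMUSG00000020911), a small type I keratin of ducts, had the largest fitted fold change among the 7 tested genes and the widest spread. It had 147, 804 and 166 RPKM in IRI replicates 1, 2 and 3, against 6.89, 6.45 and 8.06 RPKM in sham replicates 1, 2 and 3. IRI replicate 2 stood apart at 116 times the sham mean by CPM, while IRI replicates 1 and 3 were at 20.9 and 24.0 times the sham mean. The mean was 372 ± 374 RPKM in IRI and 7.13 ± 0.835 RPKM in sham (SD, n = 3 each), so the SD in IRI was as large as the mean. The difference was 53.7-fold (log2 5.75 ± 0.90, edgeR adjusted p = 0.00471), and 22.2-fold without IRI replicate 2 (log2 4.47, edgeR adjusted p = 7.45e-06). The first place of Krt19 rested on that library, since without it Vim was higher by 23.6-fold. In sham Krt19 ranked between places 5029 and 5585 by RPKM, and in IRI at places 523, 82 and 503 in replicates 1, 2 and 3.

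Krt23 and Krt80 are less well studied epithelial keratins. Krt23 (ENSMUSG00000006777), of type I, had 114, 195 and 163 RPKM in IRI replicates 1, 2 and 3, against 39.5, 40.9 and 36.5 RPKM in sham replicates 1, 2 and 3. It was 4.15-fold higher (log2 2.05 ± 0.19, edgeR adjusted p = 0.000102), and IRI replicate 1 was again the lowest of its group. Krt80 (ENSMUSG00000037185), of type II, changed least of the 7 tested genes. It had 23.1, 28.3 and 23.0 RPKM in IRI replicates 1, 2 and 3, against 17.8, 18.3 and 17.2 RPKM in sham replicates 1, 2 and 3, a 1.43-fold difference (log2 0.52 ± 0.11, edgeR adjusted p = 0.00471). Strand was not kept in the counts, and GENCODE M21 places antisense or other genes on the opposite strand of Krt5, Krt7, Krt8 and Krt80, so reads of such a pair cannot be told apart.

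**Figure D2:**
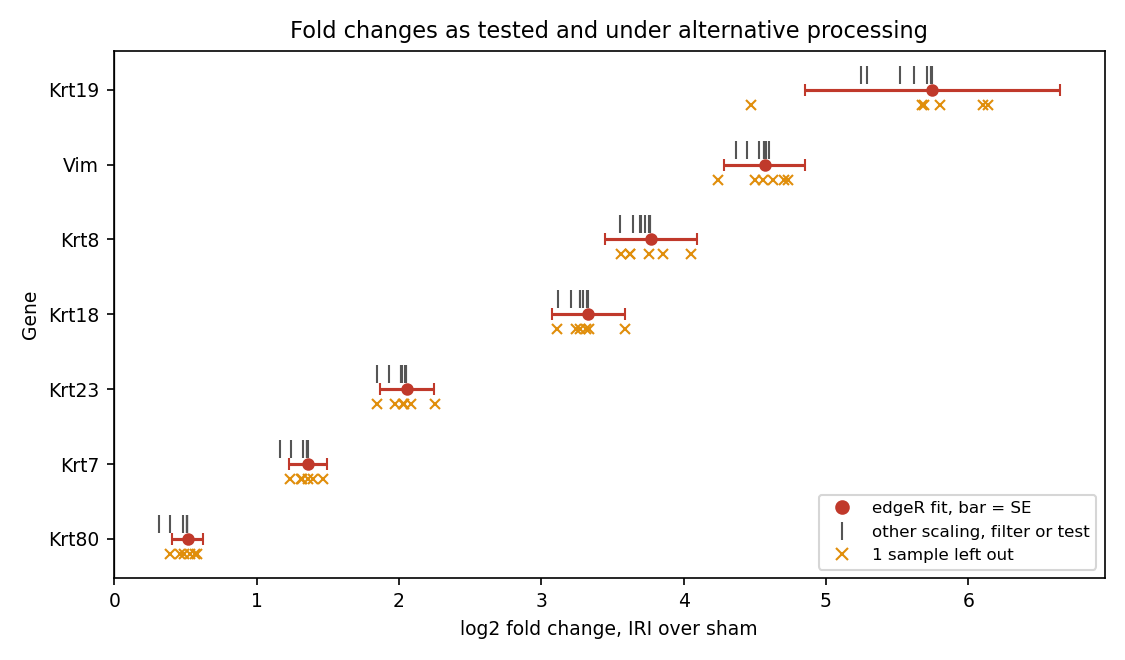
Fitted log2 fold change (IRI over sham) of the 7 tested genes as dots with bars of 1 standard error, with ticks for other scaling, filters or tests and crosses for fits that leave out a sample. The dots range between 0.52 for Krt80 and 5.75 for Krt19, no mark lies below 0, and the cross farthest from its dot is Krt19 without IRI replicate 2, at 4.47.

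Vimentin was scarce in sham and remained far below the main keratins in IRI. Vim (ENSMUSG00000026728) had 265, 278 and 294 reads in IRI replicates 1, 2 and 3, against 8, 15 and 13 reads in sham replicates 1, 2 and 3. These counts correspond to 5.45, 5.74 and 6.39 RPKM in IRI and to 0.146, 0.295 and 0.327 RPKM in sham. The IRI samples lay close together and well above the sham samples. The difference was 23.7-fold (log2 4.57 ± 0.28, edgeR adjusted p = 1.26e-05).

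Krt20 and Krt5 were close to the detection limit. Krt20 (ENSMUSG00000035775), a type I keratin of gut and urothelial surface cells, had 15, 5 and 10 reads in IRI replicates 1, 2 and 3, against 0, 1 and 0 reads in sham replicates 1, 2 and 3. Summed over the group and scaled to library size, IRI held 31.3 times the sham reads, with an exact 95% interval of 5.20 to 1276 that covers counting error only. With no filter on low counts Krt20 was called higher (log2 4.49 ± 1.07, edgeR adjusted p = 0.00234). Krt5 (ENSMUSG00000061527), the type II keratin of basal cells, had 1, 0 and 2 reads in IRI replicates 1, 2 and 3 and none in sham, which is not above the 3 reads that a count of 0 allows.

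The order of levels per length differed between the groups. In IRI it ran Krt18, Krt8, Krt7, Krt19, Krt23, Krt80, Vim, Krt20, Krt5, and the samples of Krt8 and Krt7, of Krt7 and Krt19, and of Krt19 and Krt23 overlapped. In sham it ran Krt7, Krt18, Krt8, Krt23, Krt80, Krt19, Vim, Krt20, Krt5, with no overlap between neighbours except Krt20 and Krt5. Comparison between genes depends on the gene length used, because the deposited lengths of Krt7, Krt80 and Krt19 are 1.75, 1.57 and 1.34 times that of the principal coding transcript in GENCODE M21. With the principal transcript's length, an alternative chosen after seeing the data, Krt7 moved above Krt8 in IRI, at 930.3 ± 135 RPKM for Krt7 and 747 ± 277 RPKM for Krt8 with overlapping samples. The order in sham stayed as above.

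The summed level of the 8 keratins was 2406, 4792 and 3812 RPKM in IRI replicates 1, 2 and 3, against 531, 528 and 496 RPKM in sham replicates 1, 2 and 3. The mean was 7.08 times as high in IRI as in sham. Type I keratins summed to 2299 ± 923 RPKM in IRI and 227 ± 7.69 RPKM in sham, and type II keratins to 1371 ± 295 RPKM in IRI and 291 ± 14.2 RPKM in sham (SD, n = 3 each). Type II transcripts were thus 0.752, 0.489 and 0.654 of the type I level in IRI replicates 1, 2 and 3, against 1.26, 1.35 and 1.25 of it in sham replicates 1, 2 and 3. With principal transcript lengths the mean ratio was 0.788 in IRI and 2.04 in sham.

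The makeup of the keratin pool also differed. Krt18 made up 48.1 ± 3.21% of the summed keratin RPKM in IRI and 34.9 ± 1.08% in sham, and Krt8 made up 22.1 ± 4.35% in IRI and 11.8 ± 1.46% in sham. Krt7, the largest component in sham, made up 15.6 ± 5.92% in IRI and 41.0 ± 1.81% in sham (SD, n = 3 each). Among type II keratins alone, the share of Krt7 was 52.3%, 38.4% and 29.9% in IRI replicates 1, 2 and 3, against 69.9%, 73.8% and 74.8% in sham replicates 1, 2 and 3. The difference of means was -32.6 percentage points (exact two-sided permutation p = 0.1, the smallest possible), and -17.7 points when reads were used in place of RPKM. With principal transcript lengths it was -26.4 points, with mean shares of 55.1% in IRI and 81.5% in sham. These shares restate the levels of the single genes given above.

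Krt19 made up 10.7%, 25.0% and 7.19% of type I keratin RPKM in IRI replicates 1, 2 and 3, against 2.93%, 2.86% and 3.66% in sham replicates 1, 2 and 3. Every IRI share was above every sham share. The difference of means was 11.1 percentage points (exact two-sided permutation p = 0.1, the smallest possible) and 5.79 points without IRI replicate 2.

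**Figure D3:**
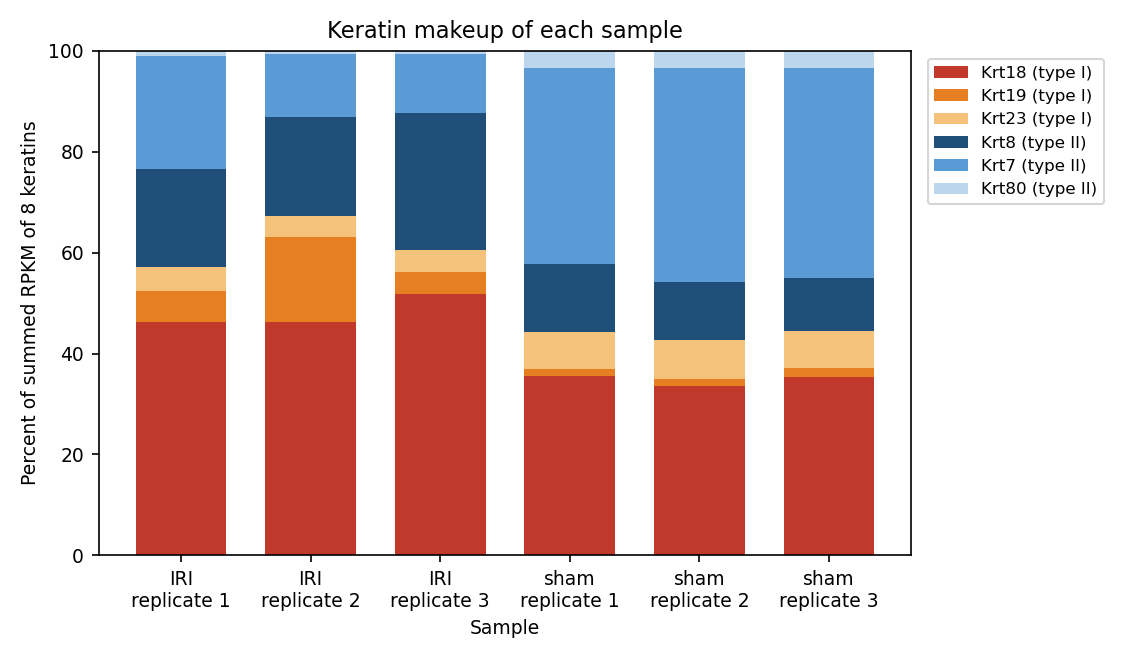
Share (percent) of each keratin in the summed RPKM of the 8 keratins, as stacked bars, for the 3 IRI samples on the left and the 3 sham samples on the right. Krt7 is the largest share in each sham bar and Krt18 in each IRI bar, while Krt5 and Krt20 are too small to see.

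The IRI samples did not vary alike across the genes when each was set against the sham mean by CPM. IRI replicate 1 was lowest for Krt8, Krt18, Krt19, Krt23, Krt80 and Vim, but not for Krt7, which was lowest in replicate 3 at 2.19 times the sham mean. IRI replicate 2 was highest for Krt7, Krt18, Krt19, Krt23 and Krt80, while replicate 3 was highest for Krt8, at 17.4 times the sham mean, and for Vim, at 25.8 times the sham mean. For Vim the 3 IRI samples differed little, between 21.6 and 25.8 times the sham mean.

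**Figure D4:**
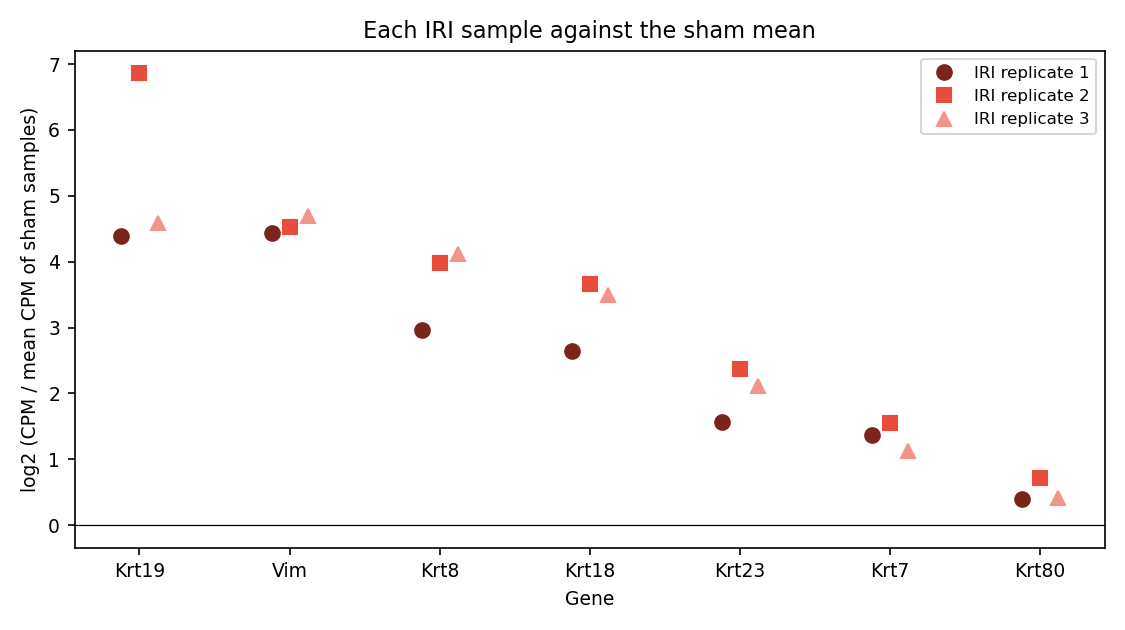
CPM of each IRI sample over the mean CPM of the sham samples, on the log2 scale, for the 7 tested genes; the line at 0 is the sham mean. Krt19 in replicate 2 is at 6.86, against 4.38 and 4.58 in replicates 1 and 3, and Vim lies between 4.43 and 4.69 in all 3.

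The rest of the keratin family had few reads or none, apart from Krt10. Of the 50 keratin genes in the files, 42 were outside the set. Krt10, a type I keratin best known from the outer epidermis, was the only one of the 42 with enough reads to be tested. It averaged 42.1 ± 6.60 CPM in IRI and 47.0 ± 1.93 CPM in sham (SD, n = 3 each) with no call (log2 -0.16 ± 0.13, edgeR adjusted p = 0.343), though it was called lower when libraries were scaled by size alone (log2 -0.36, edgeR adjusted p = 0.0366). Of the other keratins, 15 had no read in any library and 26 had some, with at most 39 reads in a library. With no filter on low counts, Krt17, Krt25, Krt36 and Krt83 were called higher besides Krt20, which made 11 of 35 keratins tested. Of all genes, 3265 of 23228 were called higher in that fit. Krt17, a keratin of stressed and basal epithelium, had 21, 18 and 7 reads in IRI replicates 1, 2 and 3, against 0, 5 and 0 reads in sham replicates 1, 2 and 3.

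Of 17 other intermediate filament genes, 9 were tested, of which Lmna, Nes, Lmnb1 and Nefm were higher and Lmnb2 was lower. A call in 5 of 9 is near the 45.5% of all genes tested that were called, so the count is no result about this list. Lmna encodes the A-type lamins of the nuclear envelope. It had 631, 1233 and 1004 CPM in IRI replicates 1, 2 and 3, against 67.7, 66.7 and 71.9 CPM in sham replicates 1, 2 and 3 (log2 3.80 ± 0.24, edgeR adjusted p = 2.51e-05). As for Krt18, replicate 1 was the lowest and replicate 2 the highest of the IRI samples. Nestin (Nes), a filament protein of progenitor and mesenchymal cells that assembles with vimentin, had 234 reads in IRI and 4 in sham in all (log2 5.79 ± 0.65, edgeR adjusted p = 0.000179; log2 5.13 and adjusted p = 0.000803 without sham replicate 1). Nes and Nefm passed the filter only through their IRI reads, so their calls are not read as support. The B-type lamin Lmnb1 was higher (log2 1.34 ± 0.31, edgeR adjusted p = 0.00806) and Lmnb2 lower (log2 -0.99 ± 0.23, edgeR adjusted p = 0.00789). The median log2 fold change of the 9 was 0.59.

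Of 21 genes whose products link filaments to junctions or regulate them, 20 were in the files and 19 were tested. Of these 13 were higher, where 24.2% of all genes tested were, and Pkp4 and Fbf1 were lower, where 21.2% of all genes tested were. The median log2 fold change of the 19 was 0.56, against 0.00038 for all genes tested. The list was chosen with earlier results of these data known, so these counts are given as a description. Plectin (Plec), the large linker that ties filaments to each other and to hemidesmosomes, averaged 546 ± 92.8 CPM in IRI and 85.1 ± 7.53 CPM in sham (log2 2.68 ± 0.15, edgeR adjusted p = 8.56e-06). Plakoglobin (Jup), which anchors filaments at desmosomes, averaged 311 ± 54.6 CPM in IRI and 80.2 ± 2.67 CPM in sham (log2 1.95 ± 0.14, edgeR adjusted p = 1.91e-05). The desmosomal plaque protein Pkp2 had a log2 fold change of 1.35 ± 0.15 (edgeR adjusted p = 0.000162), and the kinase Csnk1a1 one of 0.60 ± 0.09 (edgeR adjusted p = 0.0008). The linker Dst was not called (log2 0.26 ± 0.11, edgeR adjusted p = 0.0805). Pnn, a nuclear and desmosome-associated protein, was not called either (log2 -0.18 ± 0.10, edgeR adjusted p = 0.168), but was called lower under upper-quartile scaling (edgeR adjusted p = 0.0324) and for library size alone (edgeR adjusted p = 0.0234).

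Because vimentin is also made by mesenchymal and blood cells, their markers are given beside it. Counts of calls are set against the 24.2% of all genes tested that were called higher. Of 11 fibroblast markers, 3 were tested and Acta2 and Tagln were higher. Both passed the filter only through their IRI reads, so their calls are not read as support. The list summed to 16.9 to 40.6 CPM in IRI and 19.8 to 84.9 CPM in sham. Most of this sum was decorin (Dcn), at 23.8 ± 10.4 CPM in IRI and 43.4 ± 34.8 CPM in sham with no call (edgeR adjusted p = 0.325), and its log2 fold change of -0.87 was 0.014 without sham replicate 2. The contractile gene Acta2 averaged 3.31 ± 2.33 CPM in IRI and 0.355 ± 0.188 CPM in sham (log2 3.23 ± 0.66, edgeR adjusted p = 0.00472; log2 2.56 without IRI replicate 3). Tagln averaged 1.61 ± 0.916 CPM in IRI and 0.567 ± 0.265 CPM in sham (edgeR adjusted p = 0.0424), and its call was lost under several alternatives, with adjusted p up to 0.178 without IRI replicate 3. In this list Col3a1 had no read in any library while Col1a1 had 3 reads in IRI and 1 in sham. Of 12 macrophage and leukocyte markers, 9 were tested and Cd68, Ptprc and Lyz2 were higher. A call in 3 of 9 is near the 24.2% of all genes tested, so the count is no result about this list. Fcer1g (log2 0.74, edgeR adjusted p = 0.0861), Tyrobp, Csf1r, C1qa, C1qb and C1qc were not called. This list summed to 53.7 to 80.1 CPM in IRI and 11.4 to 18.2 CPM in sham, with most of the IRI sum from Cd68, a lysosomal glycoprotein at 37.7 ± 14.2 CPM in IRI and 0.903 ± 0.322 CPM in sham. The pan-leukocyte marker Ptprc averaged 17.4 CPM in IRI and 10.2 CPM in sham. Of 10 endothelial markers, 5 were tested and Flt1 was higher, though it passed the filter only through its IRI reads. The list summed to 10.5 to 19.6 CPM in IRI and 5.58 to 11.3 CPM in sham. Plvap (log2 1.46, edgeR adjusted p = 0.103) and Emcn (log2 1.55, edgeR adjusted p = 0.238) were not called. Nor was Pecam1, at 1.04 CPM in IRI and 0.388 CPM in sham (edgeR adjusted p = 0.209). Egfl7 went the other way, also with no call (log2 -0.29, edgeR adjusted p = 0.408). The part of these cells in the Vim result was not tested.

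Of 11 genes of the epithelial to mesenchymal transition, 6 were tested, 3 were higher and 2 were lower. Of all genes tested, 24.2% were called higher and 21.2% lower. The epithelial adhesion genes Epcam, Cdh1 and Ocln were higher in IRI, Epcam at 2634 ± 424 CPM in IRI and 1168 ± 29.8 CPM in sham (log2 1.17 ± 0.14, edgeR adjusted p = 0.000216) and Cdh1, which encodes E-cadherin, with a log2 fold change of 1.38 ± 0.12 (edgeR adjusted p = 5.51e-05). Twist1, a transcription factor, and Cdh2, which encodes N-cadherin, were lower, Cdh2 at 1.33 ± 0.564 CPM in IRI and 3.35 ± 0.842 CPM in sham. Both calls rested on few reads: that of Twist1 was lost without IRI replicate 2 or sham replicate 2 (log2 -1.59 and -1.25, against -1.84), and that of Cdh2 without sham replicate 1 or 3. Fn1, which encodes the matrix protein fibronectin, was below the filter with 40 reads in IRI and 4 in sham, and each IRI sample had a higher CPM than each sham sample. Snai1, Twist2 and Zeb1 had no read in any library. Snai2 was not called (log2 -0.03 ± 0.65, edgeR adjusted p = 0.975), and Zeb2 was below the filter with 5 reads in IRI and 4 in sham.

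Keratins also mark other epithelia, so the markers of those were set beside Krt19. Of 12 basal and squamous epithelium markers, 3 were tested and Sfn and Ivl were higher, where 24.2% of all genes tested were. Ivl passed the filter only through its IRI reads, so its call is not read as support. The list summed to 103, 367 and 209.7 CPM in IRI replicates 1, 2 and 3, against 10.2, 18.1 and 8.81 CPM in sham replicates 1, 2 and 3. The sum was highest in the replicate in which Krt19 was highest, because of Sfn. Most of it was Sfn, at 94.7, 364 and 205 CPM in IRI replicates 1, 2 and 3, against 8.13, 15.2 and 6.96 CPM in sham replicates 1, 2 and 3. Sfn was called higher (log2 4.45 ± 0.63, edgeR adjusted p = 0.00301; 14.5-fold in place of 21.8-fold without IRI replicate 2). The basal cell factor Trp63 averaged 2.26 ± 1.17 CPM in IRI and 1.26 ± 0.641 CPM in sham with no call (edgeR adjusted p = 0.195), and Dsg3 and Dsc3 had no read. In IRI replicates 1, 2 and 3 Trp63 stood at 3.50, 1.19 and 2.08 CPM and Ivl at 2.38, 1.28 and 1.84 CPM. Both were lowest in replicate 2, where Sfn was highest.

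Of 6 urothelium markers all were tested and none was called. They summed to 19.3, 24.3 and 112 CPM in IRI replicates 1, 2 and 3, against 17.9, 11.6 and 27.6 CPM in sham replicates 1, 2 and 3, and so were highest in IRI replicate 3 and not in replicate 2. Principal cell markers were lowest in IRI replicate 2, where Aqp2 was at 4202 CPM, against 9083 and 6449 CPM in IRI replicates 1 and 3. The part of other epithelial cells in the results of Krt19, Krt7, Krt8, Krt18 and the other keratins was not tested.

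**Figure D5:**
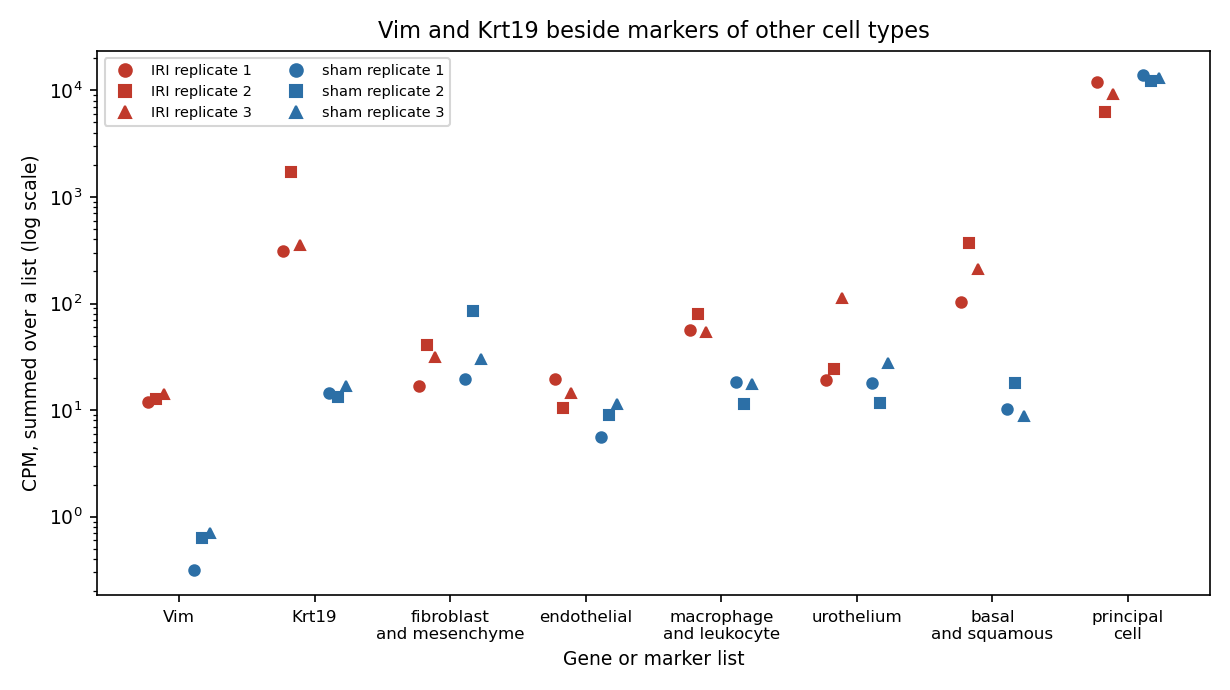
CPM (log axis) of Vim and Krt19 and summed CPM of 6 marker lists of other cell types, with a point for each IRI and each sham sample. The basal and squamous sum is 103 to 367 CPM in IRI and 8.81 to 18.1 CPM in sham, while the fibroblast and mesenchyme sums of the groups overlap.

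Among 8157 well-expressed genes outside the set, those whose log2 CPM followed Krt19 most closely over the 6 samples were Aebp2, Lass2, Anp32b, Actr3 and Rela, with Pearson's r between 0.997 and 0.999. They share the difference between groups and the high value in IRI replicate 2, but their fold changes were far smaller than that of Krt19. Rela, the p65 subunit of NF-kB, had the largest of these. It stood at 161, 256 and 169 CPM in IRI replicates 1, 2 and 3, against 48.7, 47.1 and 53.5 CPM in sham replicates 1, 2 and 3 (log2 1.97 ± 0.18, edgeR adjusted p = 9.73e-05). Closest to Vim were Fam168b, Slc20a1, Cib1, Ddx3x and Nol11, with r between 0.998 and 0.999. The calls of Lass2 and Nol11 were lost with library size alone and without sham replicate 3, and also without IRI replicate 2 for Lass2 and with upper-quartile scaling for Nol11. With only 2 groups, any gene with a steady difference gives a high r, so these are descriptions.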

How the data were processed

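RNA was sequenced from 3 IRI and 3 sham samples, grouped by their titles. The read counts deposited by the authors are raw whole numbers per gene. The deposited RPKM values divide those counts by gene length and by an effective library size of 0.917 to 1.09 times the gene total, as computed from both files, so they are not independent of the counts. STAR, HTSeq and edgeR were used by the authors with build mm9, per the submitters' processing notes (versions: not given in the sources used here). File names mark the counts as not strand-specific. Entries that name no gene held 49.3% to 50.9% of the recorded reads, mostly reads without a unique alignment (39.9% to 42.4%), and were left out.

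The test was that of edgeR 4.0.16 (R 4.3.3; filterByExpr, TMM scaling, quasi-likelihood fit with a robust prior, group as the only term). P-values were adjusted by Benjamini-Hochberg over the 13881 genes tested, and adjusted p under 0.05 made a call. The fit gave a biological coefficient of variation of 19.0%. CPM used TMM-scaled library sizes. Ratios and shares were tested by exact two-sided permutation over samples. DESeq2 1.42.0 and limma-voom (limma 3.58.1) were among the alternatives. Intervals on reads cover counting error only, because amplified copies of a molecule are not independent. Nothing in the labels says that samples of a group were separate experiments, so the p-values reflect only how these pooled samples vary. No libraries looked like copies of each other: chi-square over degrees of freedom was 166 to 242 between groups and 18.3 to 50.7 within them.

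The genes described and the lists were chosen with earlier results of these data known. The rule named all 9 genes; other keratins that were called, up to 10; up to 4 called and 2 other genes of each list of filament partners; up to 3 genes of each marker list, by level; and the 5 genes most like Krt19 and Vim by Pearson's r of log2 CPM (prior count 2) among tested genes whose mean log2 CPM reached 3. Of the marker lists, the genes that bear on a result are described. Genes named behind small counts or at 0, and Krt10, Krt17, Cdh2, Twist1, Cx3cr1, Col1a1, and Sfn, Trp63 and Ivl by sample, were chosen after their values were seen. So were Lyz2, Flt1, Pecam1 and the uncalled macrophage markers. RefSeq promoter windows matched 7 of the 9 genes by symbol.

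On simulated counts for IRI against sham (13886 genes tested), the test recovered 68 of 100 planted 2-fold changes and 98 of 100 planted 4-fold changes, all in the right direction, with 5 false calls. Every simulated gene had the same coefficient of variation of 19.0%, and only the planted genes changed. In the data 45.5% of genes were called, so these rates need not hold there, nor for a gene as variable as Krt19.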

Additional observations from a re-analysis of the deposited data

How the results depend on the processing

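Krt7, Krt8, Krt18, Krt19, Krt23, Krt80 and Vim were called higher in IRI under all 14 alternatives run: RLE, upper-quartile or library size scaling, no or a stricter filter, DESeq2, limma-voom, the replicate block and leaving out each library. Krt19 came closest to the threshold, with log2 values of 4.47 to 6.14 and adjusted p up to 0.0333. Krt80 ranged between 0.31 and 0.58 on the log2 scale with adjusted p up to 0.0302. Upper-quartile scaling moved the median of all genes by -0.12 on the log2 scale and library size alone by -0.20, and of all calls 53.3% were higher in the fit reported, 42.0% under upper-quartile scaling and 35.6% for library size alone. The count of keratins called, all of them higher, was 11 of 35 tested with no filter on low counts. It was 10 of 35 with DESeq2, against 6 of 7 in the fit reported. Genes with few reads, Krt20, Krt17, Krt36 and Krt83 among them, had entered the test. Of all genes, 6377 of 23228 were called with no filter, 3265 of them higher. With DESeq2, 6345 of 23228 were called, 3399 of them higher.

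Leaving out single libraries gave 4861 to 5835 genes called, 7 to 8 of the 9 genes, 6 to 9 keratins, a Krt8 to Krt18 log2 difference of 0.33 to 0.51, a Krt19 share difference of 5.79 to 14.7 points and a Krt7 share difference of -38.7 to -27.5 points; the exact permutation tests of these 3 cannot go below p = 0.1 (0.2 with a library left out). The 8th gene, Krt20, passed the filter only through its IRI reads in the fits that added it, so those calls are not read as support. In the fit reported, genes with few sham reads, Vim, Nes, Nefm, Ivl, Flt1, Acta2 and Tagln among them, also passed only through their IRI reads. Their calls are read the same way. Of the 47 log2 fold changes examined, 622 values under alternatives kept direction and call, 10 gained a call, 21 lost one (none of them in the 9 genes) and 3 reversed, all in markers that were not called: with single libraries left out, Cst8 ranged between -1.01 and 0.24 (0.07 without IRI replicate 1, 0.24 without sham replicate 1) and Dcn between -1.29 and 0.014 (0.014 without sham replicate 2). Same-numbered samples correlated at 0.182, 0.0952 and 0.178 in their deviations from the group means, not all above 0.1, so the numbers were not taken as pairs, although every sample correlated best with its own number; with the replicate block 6463 genes were called and no call of the 9 genes changed, while Dcn (log2 -0.67, adjusted p = 0.03) and Defb2 (log2 -0.93, adjusted p = 0.00771) were called lower. In the ratio and the shares the replicate block left the differences at 0.43, 11.1 and -32.6, with an exact sign-flip p of 0.25, the smallest that 3 pairs allow. Depth limits Krt5, Krt20 and the other low keratins, where a count of 0 allows up to 3 reads per library.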
